A study of Homo sapiens with 2 samples.

Results

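Antisense long non-coding RNAs are transcripts named for the gene they lie against, usually on the opposite strand, and they were examined in BE(2)C neuroblastoma cells in which MYCN was targeted. The members are the genes whose array symbol ends in -AS and a digit. There are 479 of them, measured by 504 probe sets, among 14812 named genes. BE(2)C is a human neuroblastoma line derived as 1 clone and carries amplified MYCN. Both groups were grown in DMEM with fetal calf serum and transfected with Lipofectamine 2000, and RNA was isolated 36 hours later. The first group received MYCN siRNA (MYCN2, Qiagen), and the other a control siRNA (ON-TARGETplus, Dharmacon), so the siRNAs differ in supplier as well as in target. Each group is 1 Affymetrix Human Gene 2.0 ST array, so no value has a replicate and no p-value is given. The control sample is titled as a reanalysis, with no explanation in its labels. MYCN itself was not analysed here, and how far its level was reduced is therefore unknown.

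An antisense RNA can start inside, beside or beyond its partner gene. Many share a start region with the partner and are transcribed away from it, while others run across its exons or introns. Some act on the partner in cis, by changing its chromatin or by pairing with its transcript, and others act elsewhere in the cell. MYCN is a transcription factor that binds DNA with MAX at E-boxes, of which CACGTG is the canonical form, near the start sites of many genes.

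Values are log2 and were made by the authors with RMA. They ran from 0.85 to 13.51 over all rows, with medians of 4.553 (MYCN siRNA) and 4.603 (control). A gene counted as measured when the mean of its probe sets reached the array's median in 1 array or both. This kept 231 of the 479 antisense RNAs (48.2%), against 10592 of all 14812 genes (71.5%). Of the 231, 187 passed in both arrays, 25 in the MYCN siRNA array alone and 19 in the control array alone. A member that passed in the control array alone had to be higher there. A member that passed in the MYCN siRNA array alone could be lower there by no more than the small gap between the medians. Such members were thus in effect also chosen for being higher in that array. KIF9-AS1 was a borderline case, which passed in the MYCN siRNA array alone at 4.56, against 4.57 in the control array (difference −0.01). The other 248 members lay below the median in both arrays, and none of them differed by 2-fold (differences of −0.87 to 0.91). The antisense RNAs were dim: 77.1% of those measured had a mean below 6, against 31.1% of measured protein-coding genes. Brightness also depends on the probes, so it does not rank the amounts of different RNAs. As a yardstick for single differences, the SD between probe sets of the same gene was 0.315, both over 14 pairs of antisense probe sets and over 380 pairs of protein-coding ones. This SD leaves out the spread between cultures. In 8 measured antisense RNAs the probe sets were placed on both strands, as described below. The antisense SD can therefore also hold differences between strands, so its match with the protein-coding SD is not a like-for-like comparison. The adrenergic markers of the line were present: 10 of 12 had a row, and all 10 were measured, from 6.53 (TH) to 10.96 (GATA2) in the MYCN siRNA array and from 6.47 to 10.7 in the control array. Of the 16 markers listed for blood, fibroblast, endothelial and epithelial cells, 6 had a row. CD14 was at 4.02 in both arrays and EPCAM at 3.83 (MYCN siRNA) and 3.96 (control), below the medians. KRT8 was at 5.10 (MYCN siRNA) and 5.15 (control), KRT18 at 5.66 (MYCN siRNA) and 6.04 (control), LUM was at 5.37 (MYCN siRNA) and 6.54 (control), and KDR at 3.997 (MYCN siRNA) and 4.64 (control). The part of such cells in the results below was not tested.

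Start regions of 5 antisense RNAs and of 1 partner are shown because their loci carry the contrasts described below. They are RefSeq promoter windows of 250 bases before and 50 after the start (GRCh38.p14). In the first 2, capitals mark the bases from the partner's start, which reads the other way, up to the start of the antisense RNA. In ZNF667-AS1 they mark CACGTG. The LIN28B and VPS9D1-AS1 windows have no capitals, since the partner's start lies outside each.
URB1-AS1, chr21:32392883-32393182, plus strand: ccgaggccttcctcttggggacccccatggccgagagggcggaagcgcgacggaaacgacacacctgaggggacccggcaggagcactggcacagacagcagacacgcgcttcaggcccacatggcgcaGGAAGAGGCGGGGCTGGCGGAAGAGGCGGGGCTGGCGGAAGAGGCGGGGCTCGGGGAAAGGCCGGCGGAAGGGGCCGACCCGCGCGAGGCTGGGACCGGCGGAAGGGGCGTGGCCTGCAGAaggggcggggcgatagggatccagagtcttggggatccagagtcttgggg
ZNF566-AS1, chr19:36489377-36489676, plus strand: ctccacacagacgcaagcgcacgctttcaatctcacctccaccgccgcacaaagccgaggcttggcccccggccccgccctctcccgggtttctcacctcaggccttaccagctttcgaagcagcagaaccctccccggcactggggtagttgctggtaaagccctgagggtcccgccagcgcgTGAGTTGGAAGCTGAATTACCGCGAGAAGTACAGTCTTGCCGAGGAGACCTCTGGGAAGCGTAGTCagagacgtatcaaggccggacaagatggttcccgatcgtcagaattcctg
LIN28B-AS1, chr6:104940478-104940777, minus strand: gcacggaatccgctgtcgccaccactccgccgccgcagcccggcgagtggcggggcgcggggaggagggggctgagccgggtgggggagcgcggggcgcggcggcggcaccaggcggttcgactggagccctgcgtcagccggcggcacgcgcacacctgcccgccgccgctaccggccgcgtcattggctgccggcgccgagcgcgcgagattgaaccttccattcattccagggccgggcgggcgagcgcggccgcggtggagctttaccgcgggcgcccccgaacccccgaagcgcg
LIN28B, chr6:104940715-104941014, plus strand: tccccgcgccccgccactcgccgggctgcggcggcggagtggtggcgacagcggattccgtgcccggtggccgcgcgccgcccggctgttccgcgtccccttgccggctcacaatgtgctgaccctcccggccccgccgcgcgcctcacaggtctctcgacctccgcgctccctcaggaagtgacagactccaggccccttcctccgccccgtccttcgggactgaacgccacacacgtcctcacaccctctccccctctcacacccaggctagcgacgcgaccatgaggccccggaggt
VPS9D1-AS1, chr16:89711606-89711905, plus strand: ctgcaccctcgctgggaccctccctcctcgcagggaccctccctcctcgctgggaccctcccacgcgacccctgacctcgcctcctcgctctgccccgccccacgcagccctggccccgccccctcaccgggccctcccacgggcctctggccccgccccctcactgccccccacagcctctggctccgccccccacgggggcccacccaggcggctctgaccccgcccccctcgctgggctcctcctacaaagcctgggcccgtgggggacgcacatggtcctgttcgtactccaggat
ZNF667-AS1, chr19:56477624-56477923, plus strand: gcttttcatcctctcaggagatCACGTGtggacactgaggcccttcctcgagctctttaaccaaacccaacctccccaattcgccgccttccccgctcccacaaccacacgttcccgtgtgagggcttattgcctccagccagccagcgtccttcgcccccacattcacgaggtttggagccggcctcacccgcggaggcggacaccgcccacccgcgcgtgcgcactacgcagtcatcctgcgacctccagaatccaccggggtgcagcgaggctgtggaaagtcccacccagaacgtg

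Set against the control, few antisense RNAs differed by 2-fold. Of the 231 measured, 3 were at least 2-fold higher in the MYCN siRNA array (1.30%), where 2.21% of all measured genes were, and 2 were at least 2-fold lower (0.866%), where 1.16% of all measured genes were. In either direction that is 5 members (2.16%), against 3.37% of all measured genes. Among measured protein-coding genes 2.13% were higher and 1.16% lower, 3.3% in either direction. In these bulk samples fewer cells of a type and less RNA per cell cannot be told apart. At 1.5-fold, 11 were higher (4.76%, against 8.81% of all measured genes) and 11 lower (also 4.76%, against 5.79%). Over all measured members these shares were below those of all measured genes in both directions. Among brighter members this did not hold in both directions: of the 70 members kept by a filter at the 70th percentile, 2 were at least 2-fold lower (2.86%, against 1.5% of all genes so kept) and 1 was higher (1.43%, against 2.6%). The median difference was −0.05, against 0.01 for all measured genes, with 102 members higher, 126 lower and 3 equal. The median depends on the scaling: it was −0.0036 after median centring of the arrays and −0.0017 after loess, where all measured genes had medians of 0.06 and 0.03. The difference exceeded the probe set SD in 80 of 231 members (34.6%), against 39.8% of all measured genes.

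The counts were also read by brightness. Below a mean level of 6, 2 of 178 antisense RNAs passed 2-fold, 1 in the stratum below 5 (1.30% of 77, against 2.62% of all measured genes there) and 1 in that from 5 to 6 (0.990% of 101, against 2.46%). From 6 to 7 it was 1 of 38 (2.63%, against 4.36%), a lower one, where 1.02% of all measured genes were lower. From 7 upwards it was 2 of 15 (13.3%, against 3.61%), 1 higher and 1 lower (6.67% each, against 1.90% and 1.71%). In that last stratum 11 of the 15 antisense RNAs were higher and 4 lower, with a median of 0.11 and an SD of 0.55. The stratum holds few genes, and its shares rest on single members.

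**Figure D1:**
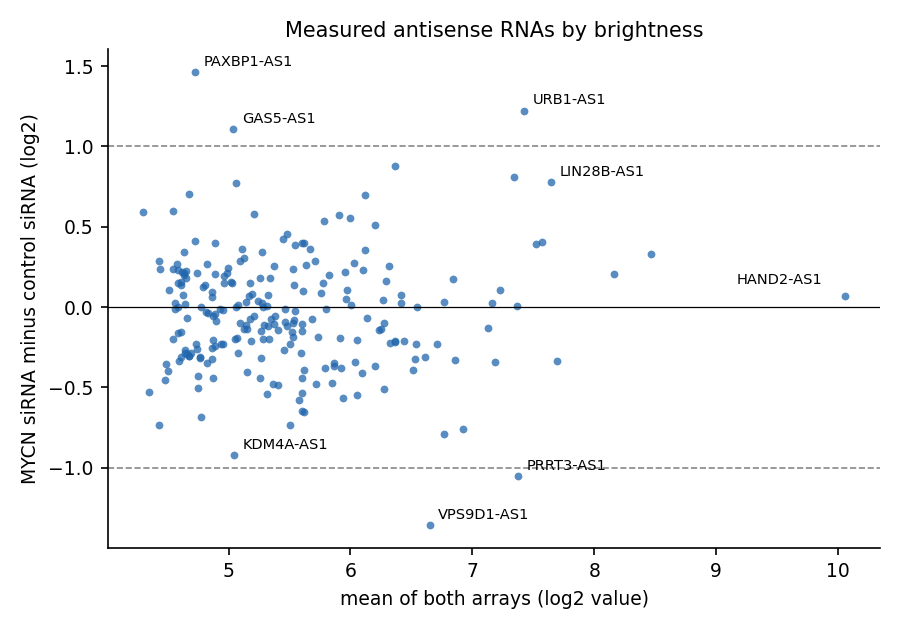
Each point is 1 measured antisense RNA (the Y-linked member is left out); the x axis is the mean log2 value of both arrays and the y axis the difference, MYCN siRNA minus control siRNA, on the log2 scale. Dashed lines mark 2-fold; 3 points lie above the upper line and 2 below the lower one, and most points have a mean below 6.

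The lowest member was VPS9D1-AS1, also known as MYU and reported in colon cancer as a transcript induced through Wnt and MYC. Its value was 5.97 in the MYCN siRNA array, against 7.33 in the control array (difference −1.36, 2.56-fold lower). Its partner VPS9D1, which encodes a protein with a VPS9 domain of the kind that acts on RAB5 GTPases, was at 6.52 with MYCN siRNA and 6.28 with control siRNA (difference 0.25). The RNA that lies against VPS9D1 was therefore lower while the coding gene differed by less than the probe set SD. PRRT3-AS1 was at 6.85 in the MYCN siRNA array, against 7.90 in the control array (difference −1.05, 2.07-fold lower). With an offset of 16 on the linear values, which damps dim genes, it was at −0.96, short of 2-fold. Its partner PRRT3 did not count as measured. These were the 2 members past 2-fold downwards, and both lay well above the array medians in both arrays.

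Just short of 2-fold was KDM4A-AS1, at 4.58 in the MYCN siRNA array and 5.50 in the control array (difference −0.92). KDM4A itself, a histone lysine demethylase, differed by 0.20. TENM3-AS1, named for a teneurin of synaptic adhesion, was at 6.38 with MYCN siRNA and 7.17 with control siRNA (difference −0.79). TMEM147-AS1 was at 6.54 in the MYCN siRNA array and 7.30 in the control array (difference −0.76), and TMEM147, a protein of the endoplasmic reticulum membrane, at 9.98 with MYCN siRNA and 10.3 with control siRNA (difference −0.32). EPB41L4A-AS1, host of a small nucleolar RNA, was at 5.14 with MYCN siRNA and 5.87 with control siRNA (difference −0.73). MIF-AS1 had the same difference to 2 decimals but was dim, at 4.06 in the MYCN siRNA array and 4.79 in the control array. It passed the filter through the control array alone. MIF, an inflammatory cytokine, differed by −0.16.

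DDX11-AS1, also called CONCR, is known as an RNA needed for sister chromatid cohesion and as a transcript activated by MYC. It was at 5.29 in the MYCN siRNA array, against 5.87 in the control array (difference −0.58, 1.496-fold lower). VPS13A-AS1, opposite a lipid transfer protein gene, differed by −0.65, with VPS13A at −0.02. FBXL19-AS1, opposite the gene of a protein that binds CpG islands, also differed by −0.65, with FBXL19 at 0.11. ZEB2-AS1 had a difference of −0.68 as the mean of 2 probe sets, at −0.79 and −0.58. It passed the filter through the control array alone (4.43 with MYCN siRNA and 5.12 with control siRNA), where a measured member had to be higher. Its own-strand probe set lay below both medians (2.95 with MYCN siRNA and 3.74 with control siRNA), and the brighter one (5.91 with MYCN siRNA and 6.496 with control siRNA) was placed on the other strand. The partner ZEB2, a repressor of epithelial genes, differed by 0.12. In VPS13A-AS1 and FBXL19-AS1 the antisense RNA was lower by more than the probe set SD, and the partner was within it.

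At the other end, PAXBP1-AS1 had the highest difference. It was at 5.46 in the MYCN siRNA array, against 3.99 in the control array (difference 1.46, 2.76-fold higher), and its control value lay under that array's median, so the fold is uncertain. PAXBP1, a partner protein of PAX3 and PAX7, differed by −0.16. URB1-AS1 was at 8.04 in the MYCN siRNA array, against 6.82 in the control array (difference 1.22, 2.34-fold higher), and both values stood far above the medians. GAS5-AS1, which lies against the non-coding snoRNA host GAS5 and so has no coding partner, was at 5.59 with MYCN siRNA and 4.49 with control siRNA (difference 1.11, 2.15-fold higher), again with a control value under the median. PAXBP1-AS1 and GAS5-AS1 both passed the filter through the MYCN siRNA array alone, the array in which they were high. With the same offset they were at 0.91 and 0.74, short of 2-fold.

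ZNF566-AS1 and ZNF667-AS1, at 2 zinc finger loci of chromosome 19, were the next. ZNF566-AS1 was at 6.81 in the MYCN siRNA array and 5.93 in the control array (difference 0.88, 1.84-fold higher). ZNF667-AS1 was at 7.75 with MYCN siRNA and 6.94 with control siRNA (difference 0.81, 1.75-fold higher) and has no partner used here. LIN28B-AS1 followed at 0.78. BABAM2-AS1, opposite a subunit gene of a BRCA1 complex, was at 5.45 with MYCN siRNA and 4.68 with control siRNA (difference 0.77), with BABAM2 at 0.28. DLG5-AS1 differed by 0.71, and FGF14-AS2, within the gene of a fibroblast growth factor homologue that binds sodium channels, by 0.70 (6.47 in the MYCN siRNA array and 5.77 in the control array), with FGF14 at 0.08. RNF217-AS1 (0.60), COCH-AS1 (0.59) and PSMG3-AS1 (0.58) completed the 12. The control values of RNF217-AS1, COCH-AS1 and DLG5-AS1 were below the array median, so these too passed the filter through the MYCN siRNA array alone.

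**Figure D2:**
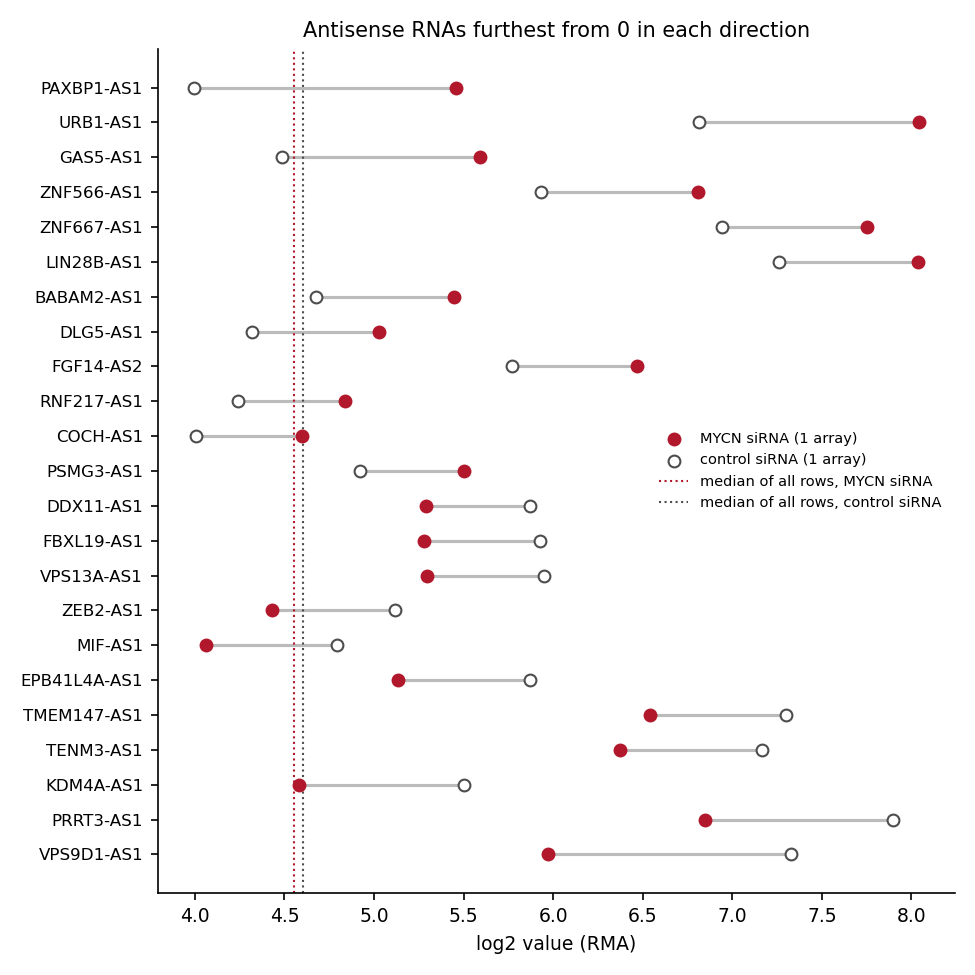
The antisense RNAs with the largest differences, 12 higher and 11 lower (the Y-linked member of the lowest 12 is left out), with the log2 value in the MYCN siRNA array (filled) and in the control array (open). Dotted lines are the medians of all rows, 4.553 (MYCN siRNA) and 4.603 (control); PAXBP1-AS1 and GAS5-AS1 cross them, while VPS9D1-AS1, PRRT3-AS1 and URB1-AS1 lie to their right in both arrays.

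The brightest member was HAND2-AS1, which overlaps the start of HAND2, a transcription factor of the sympathetic lineage, on the opposite strand. It was at 10.1 in the MYCN siRNA array and 10.0 in the control array (difference 0.07), and HAND2 at 10.5 with MYCN siRNA and 10.6 with control siRNA (difference −0.09). Neither member of this locus differed beyond the probe set SD. PITPNA-AS1 (8.63 with MYCN siRNA and 8.30 with control, difference 0.33), FGD5-AS1 (8.27 with MYCN siRNA and 8.06 with control, difference 0.20), SVIL-AS1 (7.53 with MYCN siRNA and 7.86 with control, difference −0.34) and ASB16-AS1 (7.77 with MYCN siRNA and 7.37 with control, difference 0.40) were the other bright members besides LIN28B-AS1. SVIL-AS1 was the one of these that was lower in the MYCN siRNA array.

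Antisense RNAs of developmental and disease loci formed a list of their own. Of the 34 with a row, 24 were measured: 12 higher, 11 lower and 1 equal, none by 2-fold, with a median of 0.00 and KDM4A-AS1 the lowest. The HOX cluster RNAs lay on both sides of 0, with HOXD-AS2 at 0.31, HOXA-AS3 at −0.16 and HOXB-AS3 at −0.29. CDKN2B-AS1, the ANRIL transcript of the INK4 locus, was at 0.21. ZEB1-AS1 was at 0.28 and ZEB1 at 0.23, while GATA3-AS1 was at −0.20 and GATA3, an adrenergic transcription factor, at 0.08. HOXD-AS2, HOXA-AS3, HOXB-AS3, CDKN2B-AS1, ZEB1-AS1 and GATA3-AS1 all differed by less than the probe set SD.

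Grouped by what the partner does, no group of antisense RNAs stood far from 0. Opposite or beside transcription factor genes, 30 of 57 were measured, 11 higher and 19 lower (median −0.10), from ZEB2-AS1 to ZNF566-AS1; their 35 measured partners had a median of −0.03. Beside genes of the ribosome, translation and RNA processing, 14 were measured, 8 higher and 6 lower (median 0.04), from CIRBP-AS1 at −0.53 to URB1-AS1. For cell cycle and DNA maintenance 12 were measured, 5 higher and 7 lower (median −0.06), and 7 of their 10 measured partners were lower (median −0.16). Chromatin (9 measured, median −0.07), ubiquitin and proteasome (13 measured, median −0.15, 8 lower and 4 higher), channels, transporters and receptors (15 measured, median −0.09) and neuronal adhesion, synapse and guidance (9 measured, median −0.03) were the others. Of all members in these groups, URB1-AS1 alone passed 2-fold.

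Other classes of long non-coding RNA gave a background. The 379 other measured genes of this type had a median of −0.03, and 2.90% were at least 2-fold higher and 1.32% lower. Intergenic RNAs with LINC symbols had a median of −0.07 over 142 genes. Divergent transcripts, whose symbols end in -DT and which also start beside a coding gene, had a median of 0.11 over 64 genes. The 14 microRNA host genes were at 0.13, and 7 of 8 measured SNHG genes, hosts of small nucleolar RNAs, were lower (median −0.51). No test of these differences between classes was made.

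**Figure D3:**
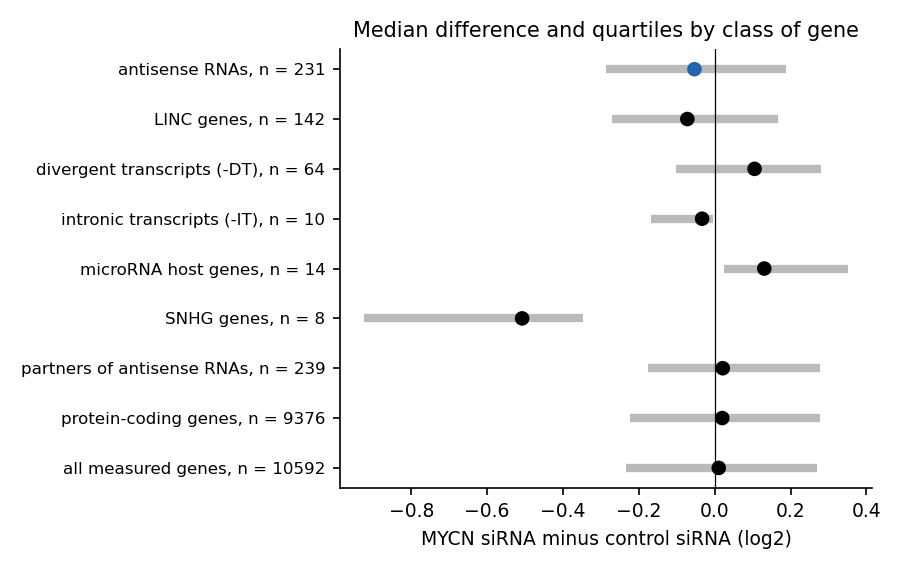
Median difference (points) and lower to upper quartile (bars), MYCN siRNA minus control siRNA on the log2 scale, for the measured genes of each class, with their number. The antisense RNAs centre on −0.05 with quartiles of −0.29 and 0.19, close to the protein-coding genes at 0.02.

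The question put to each locus was whether the antisense RNA and its coding partner differed in the same direction. A partner with a row was found for 313 members (301 partners, 11 of them shared by more than 1 member), and in 134 pairs both were measured. In 68 of 134 pairs (50.7%) both lay on the same side of 0, where a difference of exactly 0 was counted with the lower ones. Both were higher in 30 pairs and both lower in 36. The antisense RNA was higher and the partner lower in 32, and the reverse held in 33. Across these 134 pairs the differences had a Pearson correlation of −0.04 and a Spearman correlation of 0.06, given as a description. All pairs share the same 2 arrays, and the antisense value is usually the dimmer one. Neighbouring protein-coding genes on opposite strands gave 52.8% on the same side and a Pearson correlation of 0.03 over 1963 pairs. Divergent transcripts and their partners gave 61.9% and 0.27 over 42 pairs. The antisense share lay near that of coding neighbours. Among the 34 pairs whose antisense RNA had a mean of 6 or more, 12 were on the same side (35.3%, Pearson correlation −0.39). Without LIN28B-AS1 and URB1-AS1 it was 37.5% of 32 and −0.19. Another subset leaned the other way: of the 16 pairs with both members beyond the probe set SD, 62.5% were on the same side.

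Within pairs the difference of the antisense RNA minus that of its partner had a median of −0.10, with quartiles of −0.41 and 0.20, and it reached 1 or more in either direction in 10 of 134 pairs. In 5 pairs at least 1 member passed 2-fold, and in none of the 5 were both members beyond 2-fold. Besides VPS9D1-AS1, PAXBP1-AS1, URB1-AS1 and LIN28B-AS1 this was ZSWIM8-AS1, which was at 5.46 in the MYCN siRNA array and 5.47 in the control array (difference −0.01). Its partner ZSWIM8, a substrate receptor in microRNA decay, was at 7.18 with MYCN siRNA and 6.01 with control siRNA (difference 1.17).

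**Figure D4:**
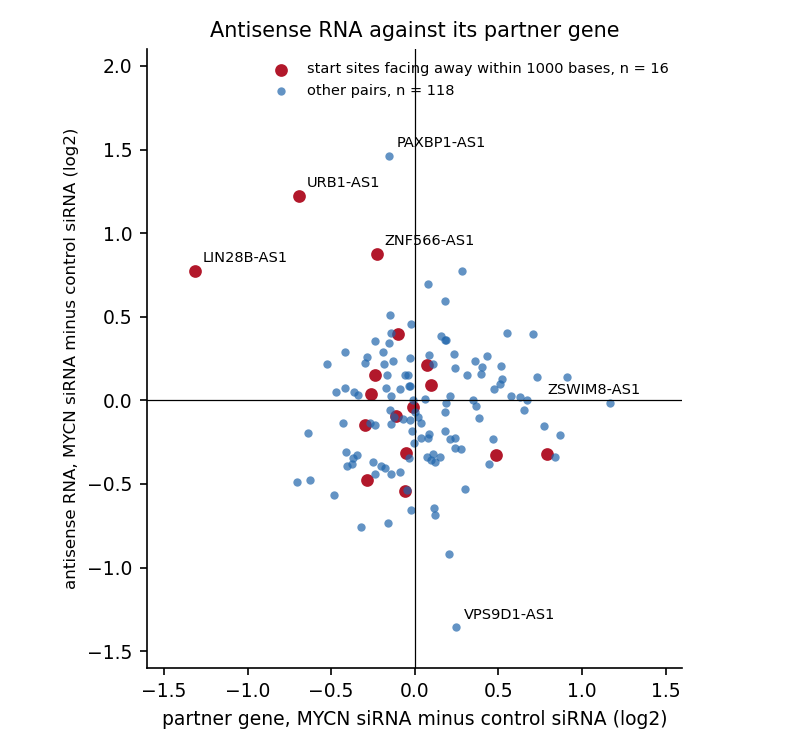
Each point is 1 of the 134 pairs with both members measured; the x axis is the difference of the partner gene and the y axis that of the antisense RNA, MYCN siRNA minus control siRNA on the log2 scale. Red points are pairs whose start sites face away within 1000 bases. Points fill all 4 quadrants, and URB1-AS1 and LIN28B-AS1 lie furthest towards the upper left.

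The LIN28B locus held the largest opposite pair. LIN28B, which blocks the maturation of let-7 microRNAs, was at 8.18 in the MYCN siRNA array, against 9.50 in the control array (difference −1.32, 2.49-fold lower). LIN28B-AS1 was at 8.04 with MYCN siRNA and 7.26 with control siRNA (difference 0.78, 1.71-fold higher). The start sites of the windows shown above face away from each other at a distance of 438 bases, although the whole RefSeq genes overlap at their starts. URB1, a nucleolar protein of large ribosomal subunit assembly, was at 7.44 in the MYCN siRNA array, against 8.13 in the control array (difference −0.69, 1.62-fold lower), while URB1-AS1 was 2.34-fold higher. Their start sites lie 121 bases apart. ZNF566 was at 5.83 with MYCN siRNA and 6.06 with control siRNA (difference −0.23), with the start of ZNF566-AS1 66 bases away. At LIN28B and URB1 both members were bright and both differed by more than the probe set SD, in opposite directions.

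Pairs with start sites this close were then collected, a set chosen after their values were seen and so a description. Start sites faced away from each other within 1000 bases in 16 measured pairs. In 8 of the 16 both lay on the same side of 0. The antisense RNA was higher and the partner lower in 6, the reverse held in 2, both were lower in 6 and both higher in 2. One of the 2 is RBM26-AS1, whose own-strand probe set was at −0.15; with that probe set alone, an alternative added after seeing the data, 7 of the 16 were on the same side and the reverse held in 3. Both members differed by more than the probe set SD, in opposite directions, in 4 of the 16 pairs, 2 with the antisense RNA higher and 2 with it lower. The Pearson correlation over the 16 was −0.60, and without LIN28B-AS1 and URB1-AS1 it was −0.29 over 14. Of the 2 pairs beyond the probe set SD with the antisense RNA lower, 1 was ZNF674-AS1 (−0.33, with ZNF674 at 0.48). The other, not named here, had the wider gap, with the antisense RNA at −0.32 and its partner at 0.79. Neighbouring coding genes with the same spacing gave 54.9% on the same side and 0.04 over 304 pairs.

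**Figure D5:**
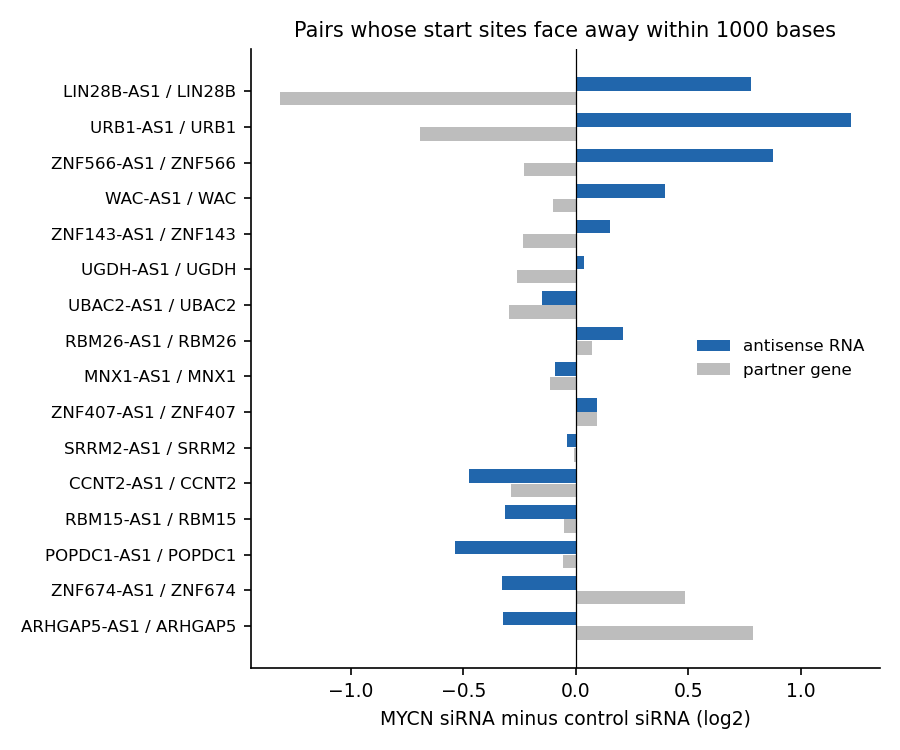
Differences, MYCN siRNA minus control siRNA on the log2 scale, of the antisense RNA (blue, upper bar of each pair) and its partner gene (grey, lower bar) in the 16 measured pairs whose start sites face away from each other within 1000 bases. LIN28B-AS1 and URB1-AS1 show the longest bars in opposite directions. ZNF674-AS1 is 1 of the 2 pairs with the reverse pattern, and the gap in the other is wider.

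The arrangement of the genes could be read from RefSeq in 88 of the 134 pairs, all on opposite strands. Where the gene bodies overlapped, 32 of 70 pairs were on the same side (45.7%, Pearson correlation −0.04). Overlap at the start sites gave 14 of 29, overlap at the ends 8 of 20, and one gene within the other 10 of 21. Where the genes lay apart with their starts nearest, 10 of 17 pairs were on the same side (58.8%, Pearson correlation −0.38). In these 17 the antisense RNA was higher and the partner lower in 5, and the reverse held in 2. The 17 include the URB1 pair, while the LIN28B pair counts with overlap at the start sites. Where one gene lay within the other, the antisense RNA was lower and the partner higher in 10 of 21 pairs, against 1 pair the other way. In each of these 10 pairs at least 1 member lay within the probe set SD, so the split rests on signs of small differences. Overlap at the start sites had the opposite split, with the antisense RNA higher and the partner lower in 11 of 29 pairs and the reverse in 4. Of those 11, the LIN28B pair alone had both members beyond the probe set SD. Of those 4, the STARD4 pair alone did (STARD4-AS1 at −0.38, STARD4 at 0.45). Over all 70 overlapping pairs the split was 19 against 18. VPS9D1-AS1 and ZSWIM8-AS1 were among the 10, but ZSWIM8-AS1 lay near 0 and was above it after median centring (0.04), quantile normalization (0.03) and loess (0.04). DDC-AS1 (−0.10), within the gene of the dopamine-synthesis enzyme DDC (0.38), and ECE1-AS1 (−0.15), within that of endothelin-converting enzyme ECE1 (0.77), were others. Whatever their arrangement, pairs that differed together included LRP4-AS1 (−0.49, with LRP4, a Wnt and agrin co-receptor, at −0.70), MCM3AP-AS1 (−0.57, with MCM3AP at −0.49) and PCNA-AS1 (−0.39, with PCNA, the sliding clamp of DNA replication, at −0.41). TMPO-AS1 (0.01) and TMPO (0.06), a nuclear lamina protein gene, were near 0. At RAMP2, which encodes a receptor activity-modifying protein, the coding gene differed by 0.91 and RAMP2-AS1 by 0.14. HMGN3-AS1 (0.22) and HMGN3 (−0.53), which encodes a nucleosome-binding protein, lay on opposite sides, and so did GNAS-AS1 (−0.37) and GNAS (0.12), an imprinted locus.

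Antisense values depend on the strand a probe set reads. The annotation gives no strand, but the numbers of the probe sets run by chromosome and strand. Each chromosome was split at the number that best separates the strands of protein-coding genes. Of the classed protein-coding probe sets, 96.0% then fell on the strand RefSeq gives their gene. That share comes from the probe sets that set the split. By chromosome it was lowest on chromosome 6, at 84.8% of 776 protein-coding probe sets. LIN28B-AS1 lies on chromosome 6, so its strand is less sure. Of 388 antisense probe sets that could be classed, 371 (95.6%) fell on their own strand and 17 on the other. Not all are separate readings. The 17 hold PSMB8-AS1 probe sets with identical values (4.61 with MYCN siRNA, 4.88 with control siRNA). The 371 hold HLA-F-AS1 probe sets that share the value 5.31 in both arrays. All of VPS9D1-AS1, PRRT3-AS1, PAXBP1-AS1, URB1-AS1, LIN28B-AS1 and ZNF566-AS1 fell on their own strand, and GAS5-AS1 was not classed. The 17 include probe sets of GATA3-AS1 (−0.26, against −0.15 in its own-strand probe set), WEE2-AS1 (−0.27, against 0.27), RBM26-AS1 (0.57, against −0.15) and ZEB2-AS1 (−0.58, against −0.79). In WEE2-AS1 and RBM26-AS1 the probe sets placed on the 2 strands differed in sign, so the mean joins unlike values. The same held for DHRS4-AS1 (0.39 on its own strand, −0.08 on the other) and PRR34-AS1 (0.12 and −0.09). The own-strand probe set of DHRS4-AS1 was bright (7.98 with MYCN siRNA, 7.60 with control siRNA) and beyond the probe set SD. Its pair was counted with the mean of 0.15. The own-strand probe set of WEE2-AS1 (3.85 with MYCN siRNA, 3.59 with control siRNA) lay below both array medians. So did the other-strand probe set of RBM26-AS1 (3.32 with MYCN siRNA, 2.75 with control siRNA). Of 10243 classed protein-coding probe sets, 409 also fell on the other strand. Whether these probe sets were misplaced or read the other strand was not tested. C10orf95-AS1 likewise had probe sets at 0.62 and −0.56.

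RefSeq windows were available for 368 of the 479 antisense RNAs. The motif CACGTG, which reads the same on both strands, was present in 33 of them (8.97%). This lay near the share in the 15843 windows of protein-coding genes (8.88%). The motif was in 7.43% of all 27305 windows and in 6.83% of the 249 windows of partner genes. Among measured antisense RNAs, 19 of 176 windows held it (10.8%), with no share of all measured genes set beside them. It was in 0 of the 9 windows of members at least 1.5-fold lower, VPS9D1-AS1 and PRRT3-AS1 included, and in 1 of the 7 windows of members at least 1.5-fold higher. That one is ZNF667-AS1, where it begins 228 bases before the start. The windows of URB1-AS1, ZNF566-AS1, LIN28B-AS1, LIN28B and VPS9D1-AS1 do not hold these letters, which says nothing about binding.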

How the data were processed

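RNA of BE(2)C cells was measured on 1 Affymetrix Human Gene 2.0 ST array per condition. The deposited log2 values were made with RMA, per the submitters' processing notes; the sources used here do not name its software, version or settings. The platform annotation named 15835 of 46255 rows, and all 479 members matched RefSeq (GRCh38.p14), used for gene type, order and start windows. Probe sets of a gene were averaged. Differences are MYCN siRNA minus control siRNA; counting used 2-fold. A pair joins an antisense RNA to the protein-coding gene named before its hyphen. Calculations used Python 3.11.15, pandas 2.3.3, numpy 2.4.6 and scipy 1.17.1, and the scripts were tested on simulated data. With 1 array per group no test is possible, and this number of arrays sets the precision. Members and lists were chosen with earlier results of these data known. Named genes are the 12 most extreme in each direction, pairs past 2-fold, the 6 brightest members, members beside the 2-fold threshold and list extremes. Of the 20 members with several probe sets, only some are named. These and others named beside them, among them the closely spaced and concordant pairs, were chosen after their values were seen. The Y-linked member, among the 12 lowest, is not reported by value. Alternatives were other normalizations, filters, thresholds, an offset and the brightest probe set.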

Additional observations from a re-analysis of the deposited data

How the results depend on the processing

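Counts past 2-fold were 3 higher and 2 lower under median centring, quantile normalization, loess, the brightest probe set, no filter and, as added after seeing the data, without the members that have a probe set in the other strand block. With the 70th percentile filter, which kept 70 members, 1 was higher (1.43%, against 2.6% of all genes kept) and 2 lower (2.86%, against 1.5%). With an offset of 16 on the linear values 1 was higher and 1 lower, and GAS5-AS1, PAXBP1-AS1 and PRRT3-AS1 were then at 0.74, 0.91 and −0.96. At 1.5-fold there were 11 in each direction. The median difference of −0.05 was −0.0036 after median centring, −0.0278 after quantile normalization, −0.0017 after loess and −0.14 with the 70th percentile filter. That filter left 35 pairs, with 37.1% on the same side, a correlation of −0.37 and a median of antisense minus partner of 0.0012. Pairs with both members beyond the probe set SD numbered 16, with 62.5% on the same side. Of 34 named antisense RNAs, 33 kept their sign after median centring, quantile normalization and loess (the exception was ZSWIM8-AS1), and 34 with the brightest probe set and the offset. No paired analysis was possible because each condition has 1 array. Signal near the array medians limits single values.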
